A study of Mus musculus with 18 samples.

Results

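The receptors described here bind the growth factors that direct blood progenitors into the lymphoid and myeloid lineages. They are 8 genes chosen by symbol for this known role, by a rule that uses no measured value: Flt3, Il7r, Csf1r, Csf2ra, Csf2rb, Csf2rb2, Il3ra and Csf3r, of the 24421 gene symbols counted in the series. All 8 were in the count table, and 7 passed the filter of a mean of at least 1 CPM (the count of a gene scaled to the depth of its library), as did 12808 genes in all. Il7r did not. In HSCs of aged mice the RNA of Csf2rb and of Flt3 was lower than in HSCs of young mice over all fractions, and no age difference of the other 5 receptors passed the test.

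Flt3 and Csf1r are receptor tyrosine kinases, which add phosphate to themselves when a ligand joins a pair of receptor chains. The other 6 are cytokine receptor chains with no kinase of their own, and they signal through Janus kinases bound to their cytoplasmic tails and through STAT transcription factors, STAT5 among them. Csf2ra and Il3ra are alpha chains that bind GM-CSF and IL-3, and both need a beta chain to signal. The beta chain encoded by Csf2rb serves GM-CSF, IL-3 and IL-5, whereas Csf2rb2, found in mice and not in humans, encodes a beta chain for IL-3 alone. In marrow, FLT3 protein, also called Flk2, appears as stem cells become multipotent progenitors, Il7r marks lymphoid progenitors, Csf3r drives neutrophil production and Csf1r drives that of monocytes and macrophages.

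The RNA came from HSCs of the bone marrow of Hoxb5-tri-mCherry mice on a C57BL/6J background, in which mCherry is made where the stem cell gene Hoxb5 is active. Every group carried this reporter. The ages were 2 to 3 months for young mice and 23 to 25 months for aged mice, with 3 libraries each of LT-HSCs (long-term, sorted as mCherry-positive), ST-HSCs (short-term, mCherry-negative) and bulk-HSCs (not divided by mCherry) at each age, 18 in all. By the study's gating scheme the HSC gate took lineage-negative, c-Kit-positive, Sca-1-positive, CD150-positive cells that lacked Flk2 and CD34 on their surface. Cells with detectable FLT3 protein were therefore sorted away before any RNA was measured, and the Flt3 values below describe RNA in cells that passed this gate. How many mice went into a library is not given in the sources used here, so p-values measure the spread between these libraries, which may in part be technical.

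Csf2rb and Csf2rb2 are near copies of each other, which bears on how far their counts can be told apart. In GENCODE M21, on the mm10 build used by the study, Csf2rb (ENSMUSG00000071713.6) lies on the plus strand of chromosome 15 from 78325752 to 78353847. Csf2rb2 (ENSMUSG00000071714.7) lies on the minus strand of the same chromosome from 78282507 to 78305721, with 20030 bases between them. Their coding sequences of 2688 and 2634 bases were aligned over 2628 positions, of which 125 differed, an identity of 95.24%. The stretch of 60 bases with the most differences, 13, is shown first because reads across it separate the genes. It lies within a single coding exon of each gene, and capitals mark the bases that differ.

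Csf2rb, chr15:78338893-78338952, plus strand: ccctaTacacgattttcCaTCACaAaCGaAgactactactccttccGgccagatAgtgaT
Csf2rb2, chr15:78294379-78294438, minus strand: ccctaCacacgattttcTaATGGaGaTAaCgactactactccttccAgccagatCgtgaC

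The longest stretch without any difference is 242 bases and is shown because a read of 127 bases, the length sequenced, that falls inside it fits both genes equally. It lies within a single coding exon of each gene.

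Csf2rb, chr15:78348577-78348818, plus strand, and Csf2rb2, chr15:78284630-78284871, minus strand: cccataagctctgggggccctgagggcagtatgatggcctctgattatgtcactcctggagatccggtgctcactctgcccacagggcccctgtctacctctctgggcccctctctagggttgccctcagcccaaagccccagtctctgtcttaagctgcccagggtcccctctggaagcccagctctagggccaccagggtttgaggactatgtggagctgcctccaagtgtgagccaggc

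Over the whole transcripts, 232 of the 4638 windows of 127 bases in Csf2rb, or 5.002%, were also found in Csf2rb2, and the same 232 made up 5.028% of the 4614 windows of Csf2rb2. How reads that fit both genes were assigned is not given in the sources used here. Results for the pair are therefore given for each gene, for their sum and for the share of Csf2rb in that sum.

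The libraries held 16495048 to 22973844 counts on genes, so that 3 counts, taken as the smallest amount that can be told from 0, correspond to 0.131 to 0.182 CPM. The reads carried no molecular identifiers, and this limit covers counting error only. The number of genes with a count was 11548 to 13876 among young libraries and 13526 to 14133 among aged ones. A listed 0 needs care in this table: 434 of the 9653 genes whose median reached 200 counts were listed at 0 in at least 1 library. Hoxb5 was higher in every LT-HSC library (8.20 to 40.3 CPM) than in every ST-HSC library (0 to 4.56 CPM), at a log2 fold change of 3.28 over both ages (adjusted p = 0.0708 from edgeR). Young LT-HSC replicate 3 and young ST-HSC replicate 3 had the fewest detected genes, 11665 and 11548, and results that change without them are given so. HSC markers summed to between 3060 and 4323 CPM in every library, with Kit the highest on average, and all 8 of them were detected in each of the 6 groups. Cell numbers and RNA per cell cannot be told apart in sorted bulk samples: fewer cells with a receptor's RNA, or less of it in each cell, would give the same value.

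Per kilobase of transcript, which allows levels to be compared between genes, Csf3r had the highest mean level over the 18 libraries, 37.9 CPM per kb. Csf2ra followed at 17.99 CPM per kb and Flt3 at 6.88. Il3ra, Csf2rb2 and Csf2rb lay close together at 4.59, 3.95 and 3.85 CPM per kb, and Csf1r was lowest among those detected at 0.321. The alpha chain Csf2ra thus had more RNA per length than either beta chain in all 6 groups. The spread over the libraries was narrowest for Csf2ra, with a coefficient of variation of 19.7%, and next for Csf3r at 26.3%. It was 84.8% for Flt3, 69.9% for Csf2rb, 69.2% for Csf2rb2 and 48.3% for Il3ra, and Csf1r, with few counts, had the widest at 113%.

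**Figure D1:**
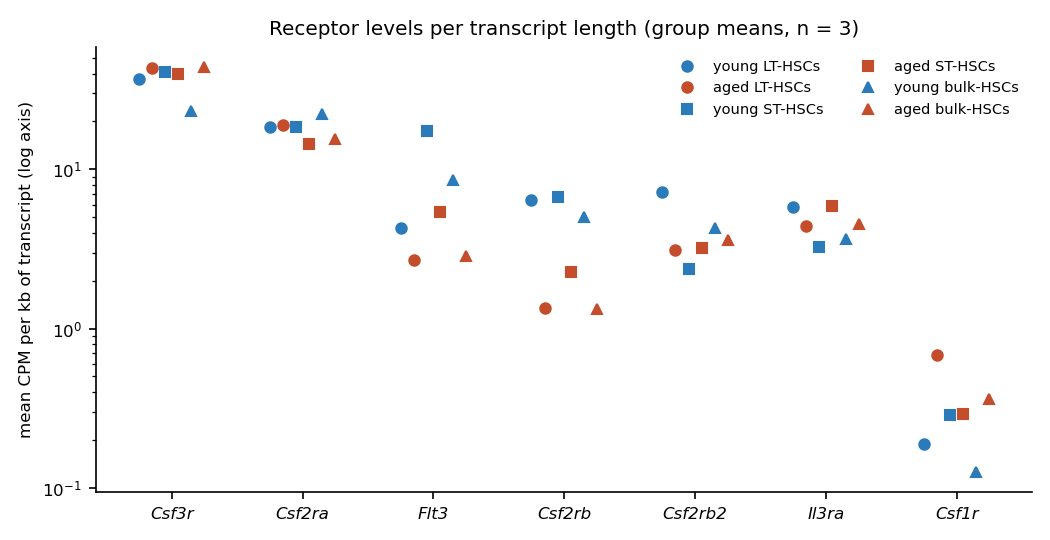
Mean CPM per kilobase of transcript (log axis) of the 7 receptors that passed the filter, with 1 point for each of the 6 groups (mean of 3 libraries), blue for young and orange for aged; Il7r is left out because it is listed at 0. Csf3r and Csf2ra lie highest in every group, and the aged points of Csf2rb lie below all of its young points.

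Flt3 (ENSMUSG00000042817.15, chromosome 5 from 147330741 to 147400489, minus strand), the receptor of FLT3 ligand, was higher in young ST-HSCs than in any other group. Its 3 replicates there had 89.3, 50.0 and 52.8 CPM. In young bulk-HSCs the replicates had 41.7, 26.4 and 25.7 CPM, and in young LT-HSCs 22.3, 9.16 and 15.9 CPM. These 3 young groups did not overlap. Here and below, 3 libraries against 3 without overlap give p = 0.1 in a two-sided exact permutation test, the smallest it can give. The share of all genes that separate in this way is not given, so such a separation is only described. In aged mice the replicates had 15.7, 18.1 and 25.2 CPM in ST-HSCs, 6.17, 12.2 and 12.9 CPM in bulk-HSCs and 7.53, 18.3 and 3.88 CPM in LT-HSCs. Aged LT-HSC replicate 2 stood above the other aged LT-HSC libraries and reached into the range of aged ST-HSCs. In order of the means, young ST-HSCs had 64.0 ± 21.9 CPM (SD, n = 3), young bulk-HSCs 31.2 ± 9.05, aged ST-HSCs 19.7 ± 4.95, young LT-HSCs 15.8 ± 6.56, aged bulk-HSCs 10.4 ± 3.70 and aged LT-HSCs 9.92 ± 7.52. From aged ST-HSCs downward each group overlapped the next in this order.

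With age, Flt3 fell by 1.32 on the log2 scale over all fractions (standard error, SE, 0.28; adjusted p = 0.00721 by the edgeR quasi-likelihood F test, adjusted by Benjamini-Hochberg over the 12808 genes), which is 2.49-fold lower in aged HSCs. When age labels were exchanged within fractions, the two-sided exact permutation test of log2(CPM + 0.5) gave p = 0.001. The separate fractions did not pass the adjusted test. The log2 fold change was -1.70 in ST-HSCs (SE 0.49, adjusted p = 0.133 from edgeR) and -1.58 in bulk-HSCs (SE 0.49, adjusted p = 0.119), and in both of these fractions every aged library lay below every young one. In LT-HSCs it was -0.67 (SE 0.48, adjusted p = 0.815), with overlapping libraries, and ran from -1.47 without aged replicate 2 to -0.29 without aged replicate 3. The age effect in LT-HSCs differed from that in ST-HSCs by 1.03 on the log2 scale (SE 0.68, adjusted p = 0.9999 from edgeR), so a difference between fractions was not shown. The pooled call was kept in all 18 fits that left out 1 library and was lost when the number of detected genes was added to the model, with a log2 fold change of -1.27 and an adjusted p of 0.289. In that model 1.19% of all genes were called with age over all fractions, in place of 6.75%. The number of detected genes was itself higher in aged libraries, and its part in the difference was not tested.

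Between fractions, Flt3 was lower in LT-HSCs than in ST-HSCs over both ages, by a log2 fold change of -1.50 (SE 0.34, adjusted p = 0.0484 from edgeR). This call was close to the threshold. It was lost in 10 of the 12 fits that left out 1 library, where the adjusted p reached 0.143 without aged ST-HSC replicate 3. It was kept without young LT-HSC replicate 1 and without aged LT-HSC replicate 2. In young mice alone the log2 fold change was -2.02 (SE 0.49, adjusted p = 0.0851 from edgeR), and in aged mice -0.99 (SE 0.48, adjusted p = 1). Bulk-HSCs lay between LT-HSCs and ST-HSCs in young mice and beside LT-HSCs in aged mice, where LT-HSCs against bulk-HSCs gave a log2 fold change of -0.07 with a 95% interval from -1.12 to 0.98.

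Cd34, the other surface marker against which the cells were sorted, had RNA in every library and was lower in both comparisons in which Flt3 was called. It ranged from 105 to 285 CPM in young libraries and from 51.5 to 123 CPM in aged libraries. Over all fractions it fell by 1.06 on the log2 scale with age (adjusted p = 1.62e-05 from edgeR). Unlike Flt3 it was also called in each fraction, with a log2 fold change of -1.08, -1.03 and -1.06 and an edgeR adjusted p of 0.0206, 0.0186 and 0.00940 for LT-HSCs, ST-HSCs and bulk-HSCs. Over both ages it was lower in LT-HSCs than in ST-HSCs, with a log2 fold change of -0.91 (adjusted p = 0.00308). Of the 5 markers of lymphoid-primed progenitors on the list fixed for these samples, Cd34 was the only one above 3 CPM in any library, and Dntt, which defines early lymphoid commitment, was listed at 0 throughout. The summed level of that list ran from 105 to 286 CPM in young and from 52.2 to 124 CPM in aged libraries, nearly all of it Cd34. Whether cells at the edge of the gate had a part in the Flt3 values was not tested.

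**Figure D2:**
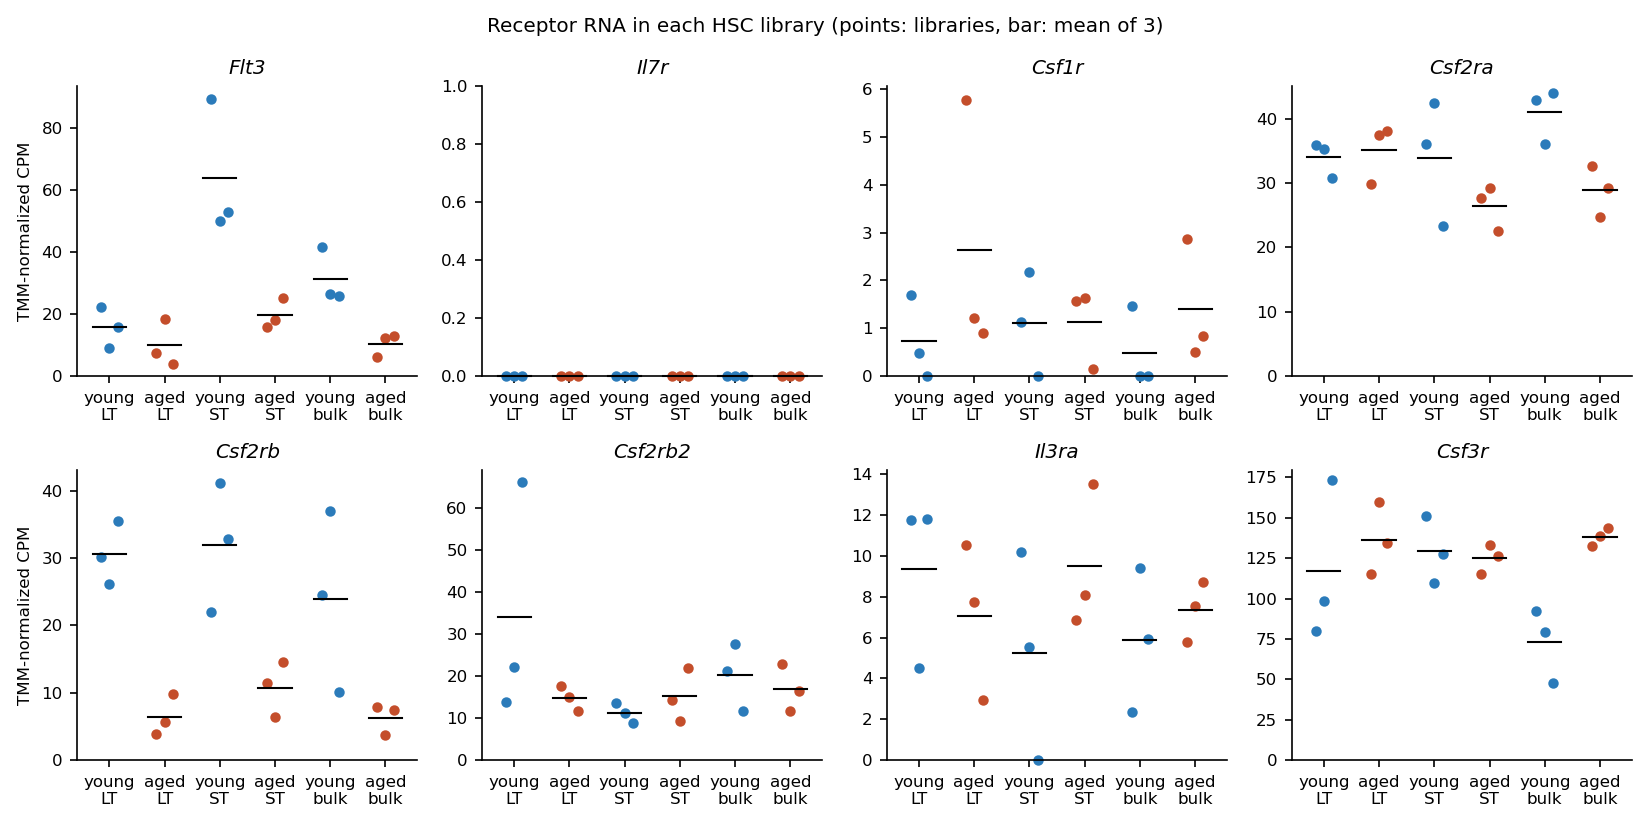
TMM-normalized CPM of the 8 receptors in each library (linear axes from 0; points are libraries in replicate order from left to right, the bar is the mean of 3; blue, young; orange, aged). For Csf2rb the aged points lie below the young points of the same fraction in all 3 fractions, Flt3 is highest in young ST-HSCs, and Il7r is listed at 0 everywhere.

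Il7r (ENSMUSG00000003882.5, chromosome 15 from 9505788 to 9530176, minus strand), the alpha chain of the IL-7 receptor on lymphoid progenitors, was listed at 0 in all 18 libraries. For a single library a true count of 0 allows a level of up to 0.131 to 0.182 CPM. It could not be tested. The chains that pair with it were present: Il2rg, the common gamma chain, had a mean of 103 CPM in young and 120 CPM in aged libraries, and Crlf2, the partner for TSLP, had 42.1 and 52.5 CPM, both named after their values were seen.

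Csf2rb was the receptor with the strongest age difference. In young mice the replicates had 30.2, 26.1 and 35.6 CPM in LT-HSCs, 22.0, 41.2 and 32.8 CPM in ST-HSCs and 24.6, 37.0 and 10.1 CPM in bulk-HSCs. In aged mice they had 3.82, 5.60 and 9.81 CPM in LT-HSCs, 11.4, 6.37 and 14.5 CPM in ST-HSCs and 7.89, 3.65 and 7.37 CPM in bulk-HSCs. Within each fraction every aged library lay below every young one. Across fractions, young bulk-HSC replicate 3, at 10.1 CPM, fell inside the range of aged ST-HSCs. The means were 30.6 ± 4.74, 32.0 ± 9.64 and 23.9 ± 13.5 CPM (SD, n = 3) in young LT-HSCs, ST-HSCs and bulk-HSCs, against 6.41 ± 3.08, 10.8 ± 4.12 and 6.30 ± 2.31 CPM in the aged groups. The young groups overlapped one another, as did the aged groups.

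Csf2rb fell by 1.92 on the log2 scale over all fractions with age (SE 0.29, 95% interval from -2.54 to -1.29, adjusted p = 0.000414 from edgeR), which is 3.77-fold lower in aged HSCs. The exact permutation test within fractions gave p = 0.00025, the smallest that its 8000 arrangements can give. In the separate fractions the adjusted p lay just above the threshold of 0.05 or further from it. By fraction, the log2 fold change was -2.25 for LT-HSCs (SE 0.51, adjusted p = 0.0610 from edgeR), -1.57 in ST-HSCs (SE 0.49, adjusted p = 0.177) and -1.92 in bulk-HSCs (SE 0.50, adjusted p = 0.0564). With 1 library of the fraction left out, the difference in LT-HSCs passed in 1 of 6 fits. That fit was without young replicate 2 (adjusted p = 0.0454 from edgeR, beside 1.45% of all genes called). In bulk-HSCs it also passed in 1 of 6, without young replicate 3 (adjusted p = 0.0211, beside 1.51% of all genes called). The pooled call was kept in all 18 fits that left out 1 library and in the 10 other alternatives, with adjusted p at most 0.0318, the value with the number of detected genes in the model. The age effect did not differ detectably between LT-HSCs and ST-HSCs (difference -0.68, SE 0.68, adjusted p = 0.9999 from edgeR).

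Csf2rb2 showed no age difference that passed. In young mice the replicates had 13.7, 22.2 and 66.1 CPM for LT-HSCs, 13.6, 11.2 and 8.91 CPM for ST-HSCs and 21.3, 27.6 and 11.7 CPM for bulk-HSCs. In aged mice they had 17.5, 14.9 and 11.7 CPM in LT-HSCs, 14.3, 9.23 and 21.8 CPM in ST-HSCs and 22.7, 11.8 and 16.5 CPM in bulk-HSCs. Young LT-HSC replicate 3, which also had among the fewest detected genes, stood far above all other libraries, and the ages overlapped in every fraction. Over all fractions the log2 fold change with age was -0.34 (SE 0.29, 95% interval from -0.98 to 0.29, adjusted p = 0.601 from edgeR), and without young LT-HSC replicate 3 it was -0.04. In young mice Csf2rb2 had a log2 fold change of 1.60 in LT-HSCs over ST-HSCs, called by DESeq2 and not by edgeR (SE 0.52, adjusted p = 0.229 from edgeR). The lowest LT-HSC library, at 13.72 CPM, stood barely above the highest ST-HSC library, at 13.60 CPM, and without young LT-HSC replicate 3 the value was 0.68 (adjusted p = 0.726).

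Of the counts on either beta chain gene, Csf2rb took a smaller share in aged HSCs. Its share in the young groups was 52.6 ± 16.9% (SD, n = 3; LT-HSCs), 73.0 ± 9.73% (ST-HSCs) and 52.4 ± 5.49% (bulk-HSCs). The aged groups had 30.3 ± 14.1% (LT-HSCs), 41.7 ± 2.33% (ST-HSCs) and 26.8 ± 3.70% (bulk-HSCs). The share lay lower in every aged library than in every young library of ST-HSCs and of bulk-HSCs, while LT-HSCs overlapped, with young replicate 3 at 35.0% and aged replicate 3 at 45.6%. Over all fractions it was 26.4 percentage points lower with age, a difference of -26.4 (two-sided exact permutation test within fractions, p = 5e-04). The sum of both genes was 64.6 ± 32.2, 43.2 ± 8.54 and 44.1 ± 21.5 CPM (SD, n = 3) in young LT-HSCs, ST-HSCs and bulk-HSCs, and 21.1 ± 0.511, 25.9 ± 10.4 and 23.3 ± 7.63 CPM in the aged groups. With the counts summed into 1 gene, it fell over all fractions at a log2 fold change of -1.09 (adjusted p = 0.00744 from edgeR), and no fraction alone passed (adjusted p = 0.110, 0.614 and 0.318). The pooled fall of the sum does not depend on how reads had been divided between the genes, whereas the size of the fall of Csf2rb alone does.

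**Figure D3:**
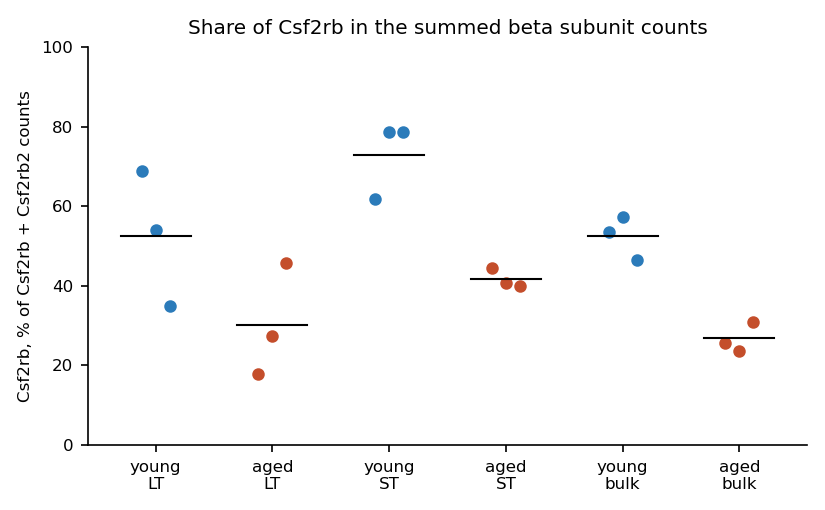
Share of Csf2rb in the summed counts of Csf2rb and Csf2rb2, in percent, for each library (points) and group (bar, mean of 3; blue, young; orange, aged). In ST-HSCs and bulk-HSCs all aged points lie below all young points, and in LT-HSCs the ages overlap.

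Csf2ra (ENSMUSG00000059326.7, chromosome 19 from 61223957 to 61228429, minus strand), the alpha chain that gives the beta chain its GM-CSF specificity, was among the steadiest of the receptors. Its lowest library had 22.6 CPM and its highest 44.0 CPM. The replicates had 36.0, 35.4 and 30.9 CPM in young LT-HSCs and 29.9, 37.6 and 38.1 CPM in aged LT-HSCs. The means of these groups, 34.1 ± 2.79 and 35.2 ± 4.56 CPM (SD, n = 3), differed by less than the spread between libraries. Age changed it in LT-HSCs by a log2 value of 0.05 (95% interval from -0.47 to 0.57, adjusted p = 0.994 from edgeR). In bulk-HSCs the young replicates had 43.0, 36.1 and 44.0 CPM and the aged ones 32.6, 24.8 and 29.3 CPM, without overlap. That difference of -0.51 (SE 0.24) did not pass either (adjusted p = 0.370 from edgeR). Over all fractions the log2 fold change was -0.27, with a 95% interval from -0.57 to 0.03 (adjusted p = 0.291).

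Il3ra (ENSMUSG00000068758.8, chromosome 14 from 14346275 to 14356011, plus strand), the alpha chain for IL-3, varied too widely between replicates for an age difference to be detected. Young LT-HSC replicates had 11.8, 4.51 and 11.8 CPM, and aged ones 10.5, 7.75 and 2.94 CPM. In ST-HSCs the young replicates had 10.2, 5.53 and 0 CPM and the aged ones 6.86, 8.10 and 13.5 CPM. In bulk-HSCs the young replicates had 2.35, 9.39 and 5.93 CPM and the aged ones 5.77, 7.55 and 8.74 CPM. The listed 0 was in young ST-HSC replicate 3, the library with the fewest detected genes. All 6 groups overlapped. Over all fractions the log2 fold change with age was 0.26, and its 95% interval ran from -1.12 to 1.63 (adjusted p = 0.904 from edgeR).

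Csf3r (ENSMUSG00000028859.14, chromosome 4 from 126024550 to 126044440, plus strand), the G-CSF receptor of the neutrophil lineage, had the most RNA of the 8, and no age difference of it passed the adjusted test. Young bulk-HSCs were the lowest group, with 92.2, 79.2 and 47.6 CPM in the replicates, and aged bulk-HSCs were the highest, with 132, 139 and 144 CPM. These libraries did not overlap. The log2 fold change in bulk-HSCs was 0.92 (SE 0.25, 95% interval from 0.37 to 1.47, adjusted p = 0.0725 from edgeR). It did not pass with edgeR, while DESeq2 gave an adjusted p of 0.00616. Without the 2 libraries with the fewest detected genes edgeR called both Csf3r (adjusted p = 0.0189) and Csf2rb (adjusted p = 0.0477) in bulk-HSCs. Of all genes it then called 3.84% in bulk-HSCs in place of 1.98%, and the log2 fold change of Csf3r was 0.93. In LT-HSCs the young replicates had 79.7, 98.7 and 173 CPM and the aged ones 115, 160 and 134 CPM, and in ST-HSCs the young replicates had 151, 110 and 128 CPM and the aged ones 115, 133 and 127 CPM. The ages overlapped in both of these fractions. Young LT-HSC replicate 3 was the highest of all libraries for Csf3r as it was for Csf2rb2.

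Over all fractions the log2 fold change of Csf3r with age was 0.36 (SE 0.14, adjusted p = 0.156 from edgeR; two-sided exact permutation test within fractions, p = 0.04425 for this gene alone). With 1 library left out it passed in 1 of 18 fits, that without young LT-HSC replicate 3, at 0.50 with an adjusted p of 0.0201. Over the 18 fits the log2 fold change ran from 0.29 to 0.50. Without both libraries with the fewest detected genes, young LT-HSC replicate 3 and young ST-HSC replicate 3, an alternative chosen after seeing the data, it was 0.49 with an adjusted p of 0.0282. The age effect in LT-HSCs was lower than that in bulk-HSCs by a log2 difference of -0.70 (SE 0.35, adjusted p = 0.846 from edgeR), so that a difference between the fractions was not shown. In young mice the mean of Csf3r was 73.0 ± 22.9 CPM (SD, n = 3) in bulk-HSCs, 117 ± 49.5 in LT-HSCs and 129 ± 20.7 in ST-HSCs. Every young ST-HSC library lay above every young bulk-HSC library, at a log2 fold change of 0.83 (SE 0.25, adjusted p = 0.251 from edgeR), which DESeq2 called and edgeR did not.

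Csf1r (ENSMUSG00000024621.16, chromosome 18 from 61100598 to 61132149, plus strand), the M-CSF receptor of the monocyte lineage, was barely detected. It was listed at 0 in young LT-HSC replicate 3, young ST-HSC replicate 3 and young bulk-HSC replicates 2 and 3. The other young libraries had between 0.490 and 2.18 CPM and the 9 aged libraries between 0.149 and 5.78 CPM, with aged LT-HSC replicate 1 the highest. The ages overlapped. Its log2 fold change over all fractions was 1.13 with a 95% interval from -1.61 to 3.87 (adjusted p = 0.716 from edgeR), so that at these counts neither a rise nor a fall was detectable. Csf1r overlaps Hmgxb3, which lies on the other strand, and whether counting used the strand is not given in the sources used here. Antisense genes of GENCODE M21 also overlap Flt3 (Gm26597) and Il3ra (Gm48860).

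Across all of the receptors, 2 of the 7 tested were called with age over all fractions, both lower, beside 864 of 12808 genes, or 6.75%. Within fractions 0 of 7 were called by edgeR. Of all genes edgeR called 0.445% for LT-HSCs, 0.851% for ST-HSCs and 1.98% for bulk-HSCs. At an unadjusted p under 0.05 stood 2 of 7 receptors in LT-HSCs (8.81% of all genes), 2 in ST-HSCs (9.67%) and 4 in bulk-HSCs (13.3%). DESeq2 called Csf2rb in LT-HSCs (2.26% of all genes), Flt3 and Csf2rb in ST-HSCs (3.5%), and Flt3, Csf2rb and Csf3r in bulk-HSCs (5.79%). Without the 2 libraries with the fewest detected genes, 3 of 7 receptors were called by edgeR over all fractions, Flt3, Csf2rb and Csf3r, beside 7.33% of all genes. The median log2 fold change of the 7 receptors over all fractions was -0.27, and that of all genes tested was 0.04. The receptors thus did not move as a group: Csf2rb and Flt3 fell, and the log2 fold changes of Csf3r, Il3ra and Csf1r were above 0 without passing the test.

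**Figure D4:**
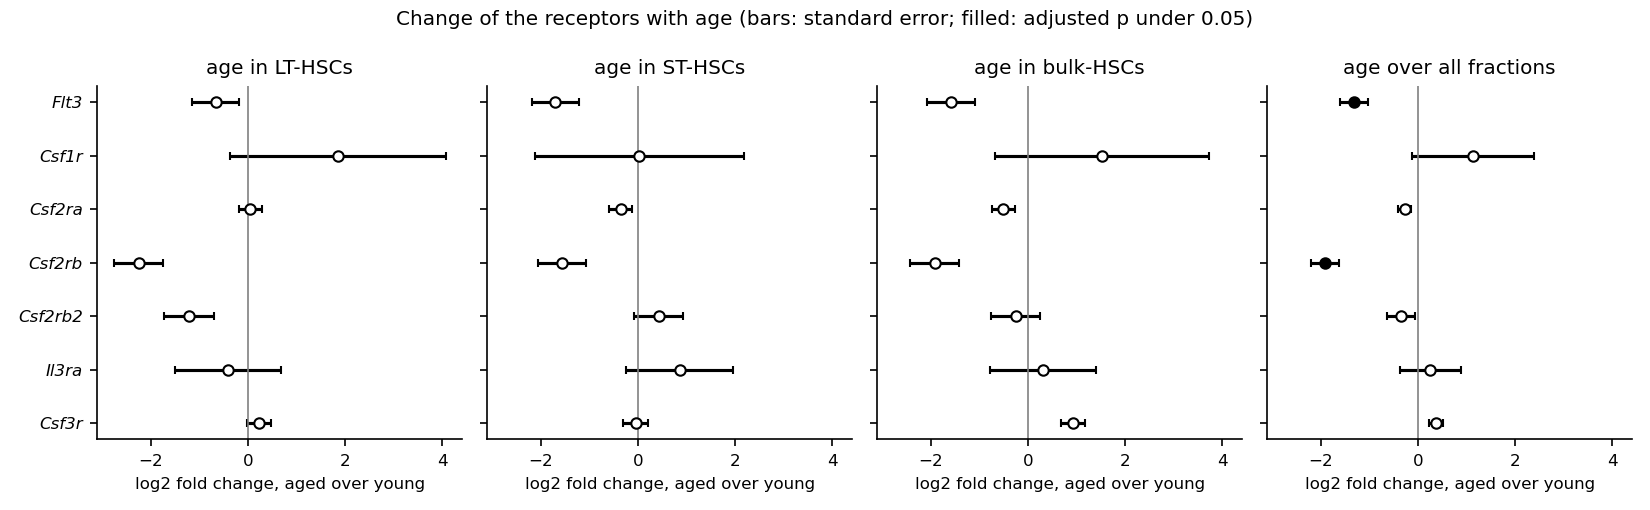
Log2 fold change of aged over young HSCs for the 7 tested receptors in each fraction and over all fractions (points, with the SE as bars; filled points have an adjusted p under 0.05 from edgeR). Flt3 and Csf2rb lie below 0 in every panel and pass over all fractions, at -1.32 and -1.92, while Csf1r and Il3ra have the widest errors.

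Between fractions, Flt3 was the 1 receptor of 7 called for LT-HSCs against ST-HSCs over both ages, beside 0.812% of all genes. For LT-HSCs against bulk-HSCs and ST-HSCs against bulk-HSCs over both ages edgeR called 0 of 7, beside 0.195% and 0.101% of all genes, and DESeq2 also called 0 of 7, beside 1.98% and 1.34%. An unadjusted p under 0.05 was found for 0 and 1 of 7 in these comparisons, beside 8.96% and 6.96% of all genes. In young mice edgeR called 0 of 7 for LT-HSCs against ST-HSCs (0.429% of all genes), LT-HSCs against bulk-HSCs (0.273%) and ST-HSCs against bulk-HSCs (0.164%). At an unadjusted p under 0.05 these comparisons had 2, 1 and 2 of 7, beside 10.4%, 11.5% and 9.63% of all genes. DESeq2 called Flt3 and Csf2rb2 for LT-HSCs against ST-HSCs (3.02% of all genes), 0 of 7 for LT-HSCs against bulk-HSCs (3.42%), and Csf3r for ST-HSCs against bulk-HSCs (2.4%). In aged mice edgeR called 0 of 7 in all of the corresponding comparisons, and 0 of 7 had an unadjusted p under 0.05. DESeq2 called 0 of 7 there in the comparisons with bulk-HSCs. Of all 12808 genes edgeR called 0.00781% there for LT-HSCs against ST-HSCs and 0% for the comparisons with bulk-HSCs. An unadjusted p under 0.05 was found for 437 genes in LT-HSCs against ST-HSCs. In the comparisons of LT-HSCs and of ST-HSCs with bulk-HSCs it was found for 421 and 346 genes, and DESeq2 called 32 and 41. For the difference in the age effect between LT-HSCs and ST-HSCs edgeR called 0 of 7 and 0% of all genes. Of 7, 1 had an unadjusted p under 0.05, as did 502 of all genes, and DESeq2 called 83 of all genes. Between LT-HSCs and bulk-HSCs edgeR called 0 of 7, beside 0.00781% of all genes. There 0 of 7 had an unadjusted p under 0.05, beside 746 of all 12808 genes. DESeq2 called 0 of the 7 receptors for the difference in the age effect between LT-HSCs and ST-HSCs.

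Of the genes that act with these receptors, a list of 147 pathway genes was described, of which 127 passed the filter. With age over all fractions 15 of the 127 rose and 9 fell, or 18.9%, beside the 6.75% of all genes given above. Their log2 fold changes had a median of 0.05. For LT-HSCs 1 rose and 1 fell (1.57%), in ST-HSCs 4 rose and 1 fell (3.94%), and in bulk-HSCs 7 rose and 4 fell (8.66%). The members of this list were chosen with earlier results of these data known, so these counts are a description of it.

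Most of the ligand genes did not pass the filter in HSCs. Of 14 ligand genes 5 passed the filter and 0 were called with age by edgeR. Csf1, which encodes M-CSF, had the smallest p of them, with a mean of 21.4 CPM in young and 32.6 CPM in aged libraries and a log2 fold change of 0.65 over all fractions (SE 0.23, adjusted p = 0.110 from edgeR). Flt3l, which encodes the ligand of Flt3, had a mean of 14.1 CPM in young and 12.97 CPM in aged libraries. Csf2, Csf3 and Il3, which encode GM-CSF, G-CSF and IL-3, were listed at 0 in all 18 libraries. These 4 were named after their values were seen.

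Among 20 tested receptors outside the 8, 3 were called higher and 0 lower with age over all fractions. Osmr, the oncostatin M receptor, was listed at 0 in 7 of the 9 young libraries, with at most 4.75 CPM in the others, and had 16.7 to 42.8 CPM in the 9 aged libraries (adjusted p = 0.000494 from edgeR). No fold is given for it because all 3 young ST-HSC libraries were at 0. Ghr, the growth hormone receptor, rose by a log2 fold change of 1.25 (SE 0.20, adjusted p = 0.000816), and this was called in ST-HSCs and in bulk-HSCs as well. Epor, the erythropoietin receptor, was called (adjusted p = 0.00555) although its means of 4.60 CPM in young and 5.49 CPM in aged libraries were close. It was listed at 0 in the 3 young ST-HSC libraries, and among the fractions it was called in ST-HSCs and not in LT-HSCs or bulk-HSCs. In bulk-HSCs it had 6.10, 17.4 and 9.44 CPM in young and 4.71, 6.58 and 7.62 CPM in aged mice.

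Of 34 tested signal transducers 2 rose and 1 fell with age over all fractions. Stat3, a transcription factor activated by receptors of the IL-6 family and by the G-CSF receptor, rose by a log2 fold change of 0.58 (SE 0.06, adjusted p = 1.65e-05 from edgeR). It ran from 182 to 309 CPM in young and from 346 to 413 CPM in aged libraries, without overlap. Pik3cd, the leukocyte catalytic subunit of phosphoinositide 3-kinase, fell by 0.80 on the log2 scale (adjusted p = 9.92e-05), from between 193 and 298 CPM to between 98.4 and 159 CPM. Plcg2, a phospholipase, rose by 0.18 (adjusted p = 0.0415). Jak2, the kinase bound to the beta chain, had a mean of 168 CPM at both ages, and Stat5a and Stat5b had 190 and 199 CPM in young and 196 and 209 CPM in aged libraries. These genes were not called, and they were named after their values were seen.

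The negative regulators of cytokine signaling moved in both directions, with 2 higher and 3 lower of 24 with age over all fractions. Socs2 and Cish, feedback inhibitors that STAT5 induces, fell by 2.03 (SE 0.40, adjusted p = 0.00391 from edgeR) and by 1.13 (SE 0.23, adjusted p = 0.00562) on the log2 scale. Socs2 had a mean of 34.4 CPM in young and 8.38 CPM in aged libraries. Socs3, the feedback inhibitor of STAT3 and of the G-CSF receptor, rose by a log2 fold change of 1.95 (SE 0.40, adjusted p = 0.00515), from between 0.952 and 21.2 CPM to between 27.6 and 44.0 CPM. Spred1, an inhibitor of Ras signaling, rose by 0.32 (adjusted p = 0.00515). Cblb, a ubiquitin ligase of activated receptors and the remaining call, fell by 0.36 (adjusted p = 0.0418). It was named after its values were seen. In bulk-HSCs Cish fell by 1.67 (adjusted p = 0.0393).

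Of the 18 genes that such receptors induce, 5 rose and 1 fell with age over all fractions. Bcl2, which protects from cell death, rose by a log2 fold change of 0.63 (SE 0.09, adjusted p = 0.000271 from edgeR). Ccnd1, a G1 cyclin, rose by 0.69 (adjusted p = 0.00173) and Junb, an early response transcription factor, by 0.92 (adjusted p = 0.00495). Ccnd2, another G1 cyclin, fell by 0.37 (adjusted p = 0.00156) and was the 1 called in LT-HSCs, where it fell by 0.54 (adjusted p = 0.0368). For LT-HSCs against ST-HSCs over both ages 6 of the 127 pathway genes, or 4.72%, were called beside the 0.812% of all genes, Epor, Pik3r1 and Foxo1 higher and Kit, Myc and Myb lower in LT-HSCs, all named after their values were seen. Epor was listed at 0 in the young ST-HSC libraries, while in aged mice it had 2.62, 8.08 and 4.04 CPM in LT-HSCs and 9.53, 2.00 and 4.22 CPM in ST-HSCs. Kit, the receptor of stem cell factor, had a log2 fold change of -0.26 (adjusted p = 0.0305 from edgeR) and Myc, a growth factor response gene, one of -0.80 (adjusted p = 0.0149).

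Among 26 tested transcription factors of the lineages that these receptors serve, 3 rose and 4 fell with age over all fractions. Mef2c rose by a log2 fold change of 1.24 (SE 0.16, adjusted p = 6.66e-05 from edgeR), from between 73.2 and 199 CPM to between 230 and 348 CPM. Cebpb, a factor of granulocyte and macrophage genes, rose by 1.90 (SE 0.28, adjusted p = 0.000291), and Gata2, a stem and progenitor cell factor, by 0.29 (adjusted p = 0.00817). Ikzf2, a member of the Ikaros family, fell by 0.46 (adjusted p = 0.00241). In bulk-HSCs alone Cebpb rose by 3.32 (adjusted p = 0.00176) and Myb, a factor of progenitor growth, fell by 0.58 (adjusted p = 0.00982). Both lower and higher lineage factors thus stood beside the fall of Csf2rb and Flt3.

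**Figure D5:**
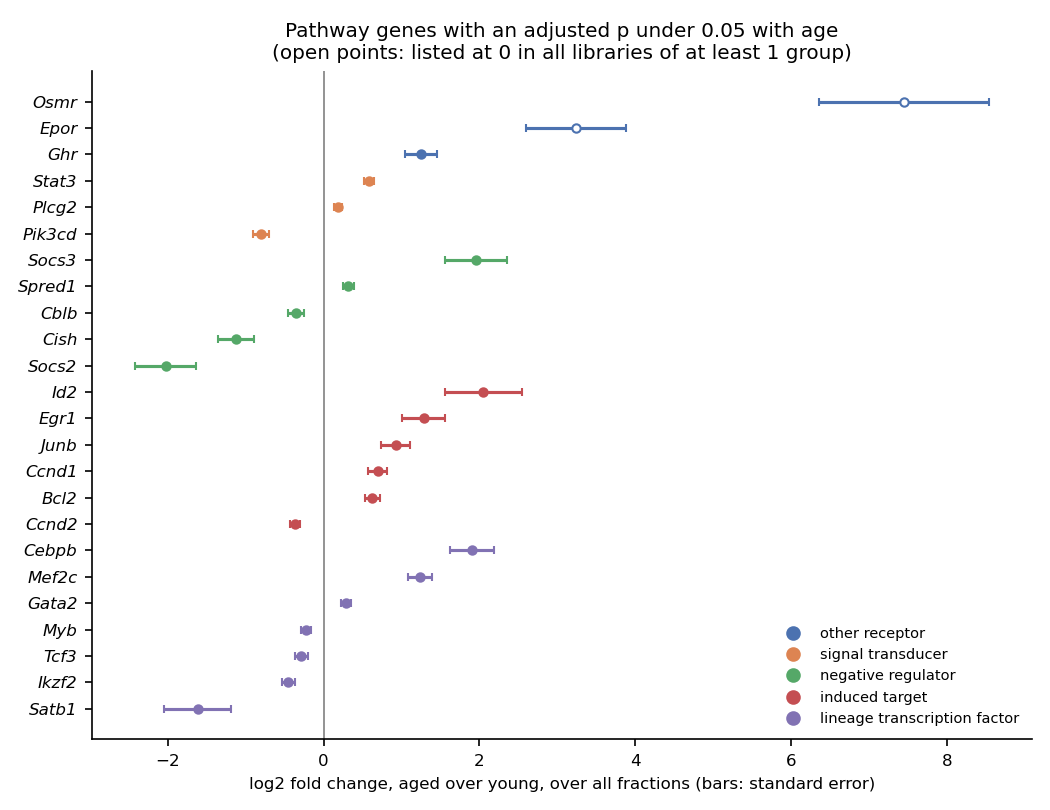
Log2 fold change of aged over young HSCs over all fractions for the 24 pathway genes with an adjusted p under 0.05 from edgeR, by list (points, with the SE as bars). The 15 that rose lie right of 0 and the 9 that fell left of it; the open points, Osmr and Epor, were listed at 0 in all young ST-HSC libraries, so their position is no measure of a fold.

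The genes most like each receptor over the 18 libraries were found by the Pearson correlation of log2(CPM + 0.5), given here without a test. All points share the 6 groups and their libraries. For Flt3 they were Cmtm7 (r = 0.85), Irf2bp2 (0.85) and Tet3 (0.83). For Csf2rb they were Zan (r = 0.85), Rgs7bp (0.85) and Pcyt2 (0.84). For Csf2rb2 they were Wapal, Utrn and Magef1, and for Csf2ra they were Wdfy3, Hoxaas3 and Fryl. For Csf3r they were Pwwp2b, Vwa8 and Zswim6, for Il3ra Atg16l2, Tmem181c-ps and Irak2, and for Csf1r Tgm4, Ppp1r3fos and Cldn10. The r of the 21 genes ran from 0.78 to 0.91, but only 2 of the 21 were among the top 3 by Spearman's rho and 1 of 21 by the correlation of deviations from the group means. Flt3 and Csf2rb had r = 0.56 over the libraries and r = -0.19 in deviations from the group means.

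Markers of other cell types were given beside these results for the whole lists. Of the 6 granulocyte-macrophage progenitor markers, Mpo, Ctsg and Ms4a3 were listed at 0 in all libraries and Prtn3 made up nearly all of the sum, which ran from 41.1 to 130 CPM in young and from 123 to 182 CPM in aged libraries. Of 9 monocyte and macrophage markers Lyz2 was the most abundant, and the sum ran from 105 to 184 CPM. Neutrophil markers summed to at most 18.2 CPM, basophil and mast cell markers to at most 4.82, eosinophil markers to at most 6.87 and T cell markers to at most 8.78. Of 8 B cell markers Cd79b was the most abundant, the sum was at most 29.2 CPM, and Ms4a1, Pax5, Ebf1 and Igll1 were listed at 0 throughout. Dendritic cell markers, of which Cd74 was the most abundant and Siglech and Itgax were listed at 0, summed to between 153 and 270 CPM in young and between 365 and 450 CPM in aged libraries. Erythroid markers summed to between 0 and 135 CPM, and Car1 reached 129 CPM. The mean sum of the granulocyte-macrophage progenitor list was 78.5 CPM in young and 143 CPM in aged libraries, and every aged library lay above every young one for the dendritic cell list. These sums rose with age, opposite to Csf2rb and Flt3. The mean sums of the neutrophil, basophil and mast cell, and eosinophil lists were also higher in aged libraries, at low levels. Each eosinophil marker was listed at 0 in 17 libraries. Among neutrophil markers S100a8 was listed at 0 in 17 libraries and Ngp in 16, and all 6 were at 0 in aged bulk-HSCs. The most abundant of them, S100a9, had a lower mean in aged libraries (1.19 CPM) than in young ones (1.83 CPM). Other lists had lower mean sums in aged libraries. In young and aged libraries these were 149 and 133 CPM for monocytes and macrophages and 33.2 and 21.2 CPM for erythroid cells. The erythroid sum followed Car1, with means of 28.9 and 5.89 CPM, and the list did not move as 1. Of its 3 tested markers edgeR called 1 higher and 0 lower with age over all fractions, beside 6.75% of all genes. B cells had 20.9 and 18.8 CPM in young and aged libraries, T cells 1.62 and 0.541, and lymphoid-primed progenitors 176 and 84.9. The sum for lymphoid-primed progenitors was nearly all Cd34, at 175 and 84.6 CPM. The part of any list in the results was not tested.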

How the data were processed

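For each HSC fraction and age the authors sequenced RNA as paired reads of 127 bases after ribosomal RNA depletion, mapped to mm10 with HISAT2 and quantified with StringTie 1.3.4d. The values they deposited are gene counts from this quantification, per gene symbol and without normalization. Groups came from the sample labels, and 0 columns were left out. Depth was 16495048 to 22973844 counts per library.

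TMM factors, CPM and quasi-likelihood tests were computed with edgeR 4.0.16 in R 4.3.3. Genes with a mean of at least 1 CPM were tested in 1 model of 6 group means with 12 residual degrees of freedom. Benjamini-Hochberg adjusted p under 0.05 counted as called over all 12808 genes. Standard errors came from the fold change and the F statistic, and 95% intervals from these and the residual degrees of freedom. Exact permutation tests used log2(CPM + 0.5), and with 3 libraries against 3 the smallest p is 0.1. Alternatives used limma 3.58.1 and DESeq2 1.42.0, other normalizations and filters, a covariate for detected genes, replicate blocks, summed Csf2rb and Csf2rb2 counts, a fit on only the groups compared, and each library left out. A further alternative, without the pair of libraries with the fewest detected genes, was chosen after seeing the data. The code was tested on simulated data. Positions and sequences came from GENCODE M21 with Biopython 1.88. Length per gene was that of the transcript with the longest coding sequence.

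The receptors, lists and tests were chosen with earlier results of these data known. Named were all 8 receptors and, per pathway list and age comparison, at most the 4 called genes of smallest p (without any call, the 1 of smallest p), the 3 genes most like each receptor, and Hoxb5. Marker lists were given as sums. The results of 2 genes on these lists are not reported here.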

Additional observations from a re-analysis of the deposited data

How the results depend on the processing

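The age differences of Flt3 and Csf2rb over all fractions kept their direction under every alternative that was run, and their calls as well, except that Flt3 was not called with detected genes as a covariate. That setting left 1 receptor called with age over all fractions, beside 153 of 12808 genes, or 1.19%, in place of 6.75%. Of 638 values from the alternatives other than single left-out libraries, 587 kept direction and side of the threshold, as did 577 of 632 values from the left-out fits. DESeq2 called 1 receptor with age in LT-HSCs, 2 within ST-HSCs, 3 within bulk-HSCs, and in young mice 2 between LT-HSCs and ST-HSCs and 1 between ST-HSCs and bulk-HSCs, where edgeR called 0. Between LT-HSCs and ST-HSCs over both ages 0 were called under library size alone, RLE size factors, filterByExpr, the covariate or the replicate block. The same held without the 2 libraries with the fewest detected genes. In that last case 2, Csf2rb and Csf3r, were called with age in bulk-HSCs, beside 3.84% of all genes. Over the fits that left out 1 library the number called ran from 0 to 1 for age in LT-HSCs, age in bulk-HSCs and LT-HSCs against ST-HSCs over both ages. Of all genes, these fits called 0.102% to 1.45% with age in LT-HSCs and 0.898% to 1.87% in bulk-HSCs. For LT-HSCs against ST-HSCs over both ages the main fit called 0.812% of all genes, and the shares in the alternatives are not given. The cause of these shifts was not tested.

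Log2 fold changes that changed sign belonged to receptors without a call in that comparison. With the covariate the age values were -0.90 for Csf1r and -0.22 for Csf2ra in LT-HSCs, -1.32 for Csf1r and 0.095 for Csf3r in ST-HSCs, -2.15 for Csf1r, 0.15 for Csf2rb2 and -0.50 for Il3ra in bulk-HSCs, and -1.46 for Csf1r and -0.39 for Il3ra over all fractions. Over both ages the covariate gave -0.029 for Csf2ra in LT-HSCs against bulk-HSCs, and -0.51 for Csf1r and -0.036 for Il3ra in ST-HSCs against bulk-HSCs. Without the 2 libraries the age values were -0.031 for Csf2ra in LT-HSCs and -0.55 for Csf1r in ST-HSCs, and the values over both ages were -0.20 for Il3ra in LT-HSCs against ST-HSCs and -0.19 for Csf2rb2 in LT-HSCs against bulk-HSCs. Csf3r in LT-HSCs against ST-HSCs was 0.017 under library size alone, 4.52e-05 under RLE size factors and 0.000469 with DESeq2, and the summed Csf2rb and Csf2rb2 counts gave 0.14.

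With 1 library left out, the age values ran from -0.019 to 0.15 for Csf2ra in LT-HSCs, from -0.55 to 0.97 for Csf1r and -0.16 to 0.075 for Csf3r in ST-HSCs, and from -0.52 to 0.046 for Csf2rb2 and -0.055 to 0.83 for Il3ra in bulk-HSCs. Over both ages LT-HSCs against ST-HSCs ran from -0.46 to 0.79 for Csf1r, -0.20 to 0.10 for Csf3r and -0.088 to 0.66 for Il3ra. LT-HSCs against bulk-HSCs ran from -0.022 to 3.89 for Csf1r, -0.041 to 0.061 for Csf2ra, -0.032 to 0.42 for Csf2rb and -0.19 to 0.46 for Csf2rb2, and ST-HSCs against bulk-HSCs from -0.041 to 3.58 for Csf1r and -0.36 to 0.39 for Il3ra. Csf1r fell under the filter in some of these fits and then had no value.

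Replicate numbers are shared between groups, and the labels do not say that they mark shared mice. Deviations from the group means correlated between same-numbered libraries at -0.043 to 0.135 within an age, above 0.1 in 2 of 18 pairs, and a library correlated best with its own number, 1 of 3, in 21 of 36 cases. The libraries were treated as unpaired. With the replicate block 855 genes were called with age over all fractions in place of 864, with 2 receptors among them, and Flt3 in LT-HSCs against ST-HSCs over both ages had an adjusted p of 0.0764 (edgeR). With the block within each age, Csf1r was -0.084 in LT-HSCs against ST-HSCs and Il3ra -0.080 in ST-HSCs against bulk-HSCs.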
